A study of Mus musculus with 3 samples.

Results

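The RNA of vehicle-treated, activated mouse B cells is described here from a single library, the DMSO library, which is 1 of 3 in the series and was chosen by its treatment label. The cells were splenic B cells of C57BL/6 mice that lacked surface CD43, a sialoglycoprotein carried by activated B cells, plasma cells, T cells and myeloid cells. They were cultured for 3 days in RPMI 1640 medium with lipopolysaccharide (LPS) and interleukin-4 (IL-4), and the DMSO solvent was the vehicle for the drugs of the other 2 libraries, JQ1+ at 80 nM and flavopiridol at 30 nM. Total RNA was depleted of ribosomal RNA and sequenced. No drug comparison is made. All 33700 gene rows of the library's table are used. Neither the number nor the sex of the mice is given in the labels, and there is no unstimulated or freshly isolated sample, so no value below shows what the culture changed. With 1 library there is no replicate, and no test between conditions is possible.

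LPS is a component of the outer membrane of Gram-negative bacteria that B cells sense through the receptor Tlr4, and IL-4 is a T cell cytokine that signals through Il4ra, JAK kinases and Stat6. Together they drive resting B cells into the cell cycle and into class switch recombination, in which IgM is replaced by IgG1 or IgE. Some of the dividing cells go on to become antibody-secreting plasmablasts, which express Prdm1, Xbp1 and Irf4 and enlarge their endoplasmic reticulum.

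The deposited counts summed to 59786847. RPKM, the reads of a gene divided by the kilobases of its model and by the size of the library, is used wherever levels of different genes are compared, because it accounts for gene length. Intervals are 95% intervals of the count put on the RPKM scale, after division of the counts by 2.84 for the reason given with the processing, and they cover counting error only, since the labels name no molecular identifiers and PCR copies are not independent molecules. A level of 1 RPKM was reached by 14675 of 33700 rows, which is 43.5%, and 11478 rows, 34.1%, had no count. Of 21047 protein-coding rows 11302, which is 53.7%, reached 1 RPKM, and every count of listed genes below is to be read against that share. The median over all protein-coding rows was 2.08 RPKM, and over those at 1 RPKM or more it was 22.7 RPKM. For a gene with 0 counts the limit is 3 counts, equal to 0.143 RPKM for a gene of 1 kilobase, or 0.405 RPKM if counts are divided as for the intervals. Gene models also matter. Of 968 listed genes with both a length implied by RPKM and a length in GENCODE M21, 813 moved by less than 1.5 times with the latter. Values with GENCODE M21 lengths are given beside genes that moved more and on which a result turns.

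RNA was concentrated in few genes. The leading 96 rows held 50% of all summed RPKM and 362 protein-coding rows held 50% of the protein-coding RPKM. By counts, which favour long genes, the same 50% was spread over 816 rows. Of the protein-coding rows 113, or 0.537%, were at 1000 RPKM or more and held 35.1% of the protein-coding RPKM. A further 1399 rows lay between 100 and 1000 RPKM and held 36.8%, and 6492 lay between 10 and 100 RPKM and held 26.3%. The 3298 rows between 1 and 10 RPKM held only 1.68%.

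**Figure D1:**
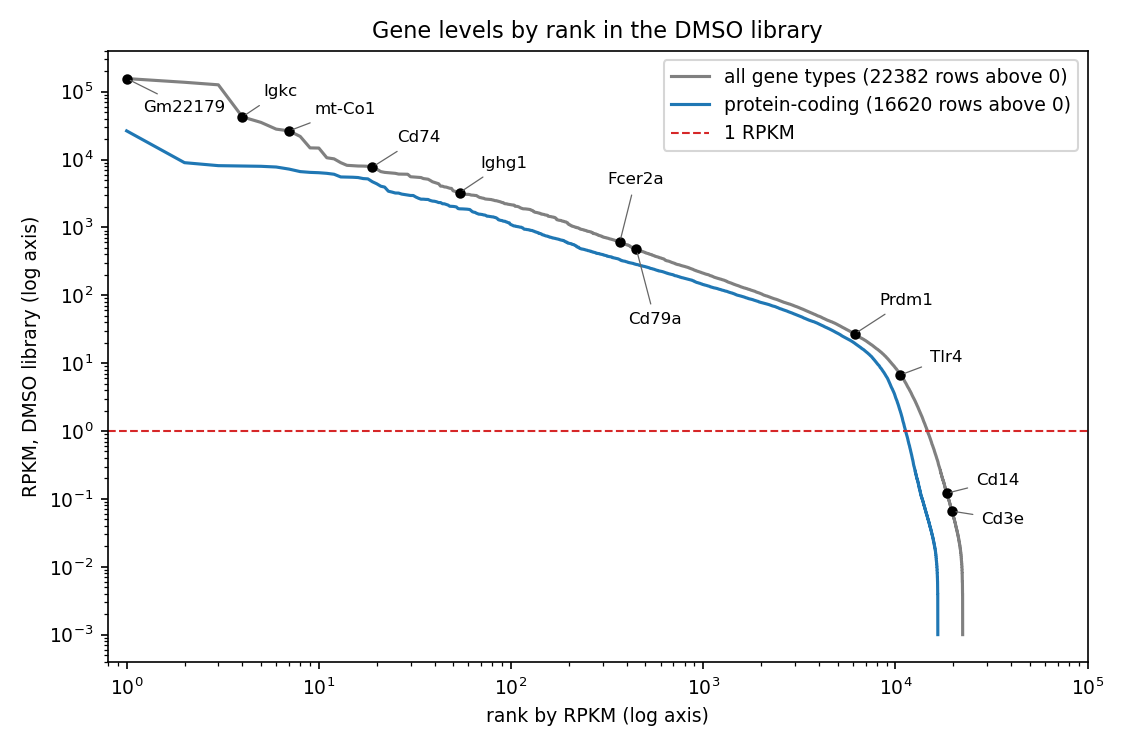
Level in RPKM against rank in the DMSO library, both on log axes, for rows above 0 of all gene types (grey) and of protein-coding genes (blue), with 11 genes marked and a dashed line at 1 RPKM. Marked genes run from 155963 RPKM for Gm22179 through 606 RPKM for Fcer2a and 26.9 RPKM for Prdm1 to 0.066 RPKM for Cd3e, and the curve steepens below 10 RPKM.

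The highest levels per length belonged to small structured RNAs that are not messengers. Gm22179, which the GENCODE M21 annotation names Rn7s6 and which encodes 7SL, the RNA of the signal recognition particle that guides secreted proteins to the endoplasmic reticulum, was first at 155963 RPKM. Rpph1, the RNA subunit of ribonuclease P, which trims transfer RNAs, stood at 137450 RPKM. Rn7sk, the 7SK RNA that holds the elongation kinase Cdk9 inactive, stood at 126091 RPKM. These 3 rows took 21.7% of all summed RPKM but 4.56% of the counts (exact Clopper-Pearson interval 4.55 to 4.57%). Rmrp, the RNA of the ribonuclease that processes ribosomal RNA and mitochondrial RNA, followed at 28038 RPKM. Ccdc107, a protein-coding gene on the other strand that overlaps Rmrp in GENCODE M21, stood at 3413 RPKM, and reads of the pair cannot be told apart where strand was not used.

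The ninth and the tenth rows of the table, Gm26315 at 14847 RPKM and Gm24447 at 14752 RPKM, are copies of 7SK. Their first 60 bases are shown beside those of Rn7sk because they show how little separates the copies at the 5′ end; capitals mark bases that differ from Rn7sk at the same position (sequences from GENCODE M21 transcripts).
Rn7sk: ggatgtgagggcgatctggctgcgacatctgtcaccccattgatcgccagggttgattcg
Gm24447: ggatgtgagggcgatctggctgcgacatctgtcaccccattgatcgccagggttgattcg
Gm26315: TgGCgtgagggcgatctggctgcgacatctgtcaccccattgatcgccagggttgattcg
Within this stretch Gm24447 does not differ from Rn7sk and Gm26315 differs at 3 positions. Over the whole alignment 283 of 353 columns were identical for Gm24447 and 276 of 331 for Gm26315. The level of Rn7sk was 8.55 times that of Gm24447 (interval 8.46 to 8.64). How reads shared by such copies were assigned is not given in the sources used here, so the split among them is uncertain.

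By gene type, protein-coding rows held 82.0% of the counts (interval 82.0 to 82.1%) but 47.0% of summed RPKM. The misc_RNA type, which holds the structured RNAs above, held 5.19% of counts and 24.8% of summed RPKM from 408 rows, of which only 54 reached 1 RPKM. Pseudogenes held 6.997% of counts and 15.4% of summed RPKM, with 1517 of 5145 rows at 1 RPKM or more. The lincRNA, processed_transcript and antisense types held 0.657%, 0.447% and 0.396% of counts. Mitochondrial rows of all types, 37 in number, held 3.90% of counts and 5.44% of summed RPKM.

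**Figure D2:**
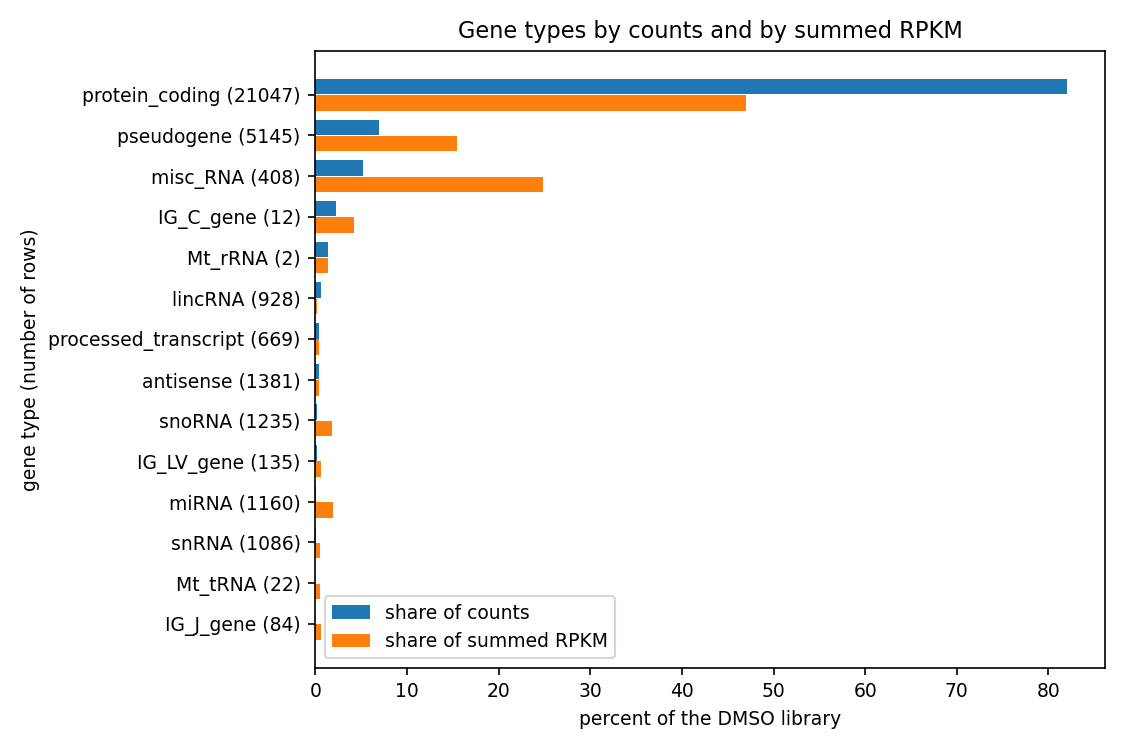
Share of the DMSO library in percent taken by each of the 14 gene types with the most counts, as a share of counts (blue) and of summed RPKM (orange); bars start at 0 and the number of rows stands in brackets. Protein-coding rows hold 82.0% by counts and 47.0% by RPKM, and misc_RNA rows 5.19% and 24.8%.

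Copies of ribosomal protein genes were prominent among the highest rows. Names of the form of a ribosomal protein pseudogene matched 179 rows, of which 130 reached 1 RPKM, and together they held 2.13% of counts, beside 2.55% for 99 ribosomal protein genes. By summed RPKM the copies held 5.49%, more than the 3.15% of the genes. The copies were matched by name over all gene types, and some, such as Rps26-ps1 (5539 RPKM) and Rpsa-ps10 (3212 RPKM), are labelled protein-coding. Their share is therefore not a part of the pseudogene share above. Rps24-ps3 was the highest at 8217 RPKM, followed by Rps6-ps4 at 6333 RPKM. The highest ribosomal protein genes under their own names were Rplp1 at 6467 RPKM, Rpl4 at 5243 RPKM and Rpl8 at 4395 RPKM. Processed pseudogenes are near-identical to the messenger they were copied from, so reads of a copy and of its parent gene cannot be told apart here. AY036118, a pseudogene row at 8004 RPKM, and Gm10800, a protein-coding row at 7946 RPKM, were also among the 20 highest rows outside the small RNA types, together with the predicted genes Gm7536, Gm15427, Gm13456, Gm14303 and Gm10275, all between 6068 and 6392 RPKM.

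Apart from copies, the highest rows outside the small RNA types were antibody, mitochondrial and housekeeping genes. The 2 mitochondrial ribosomal RNA rows were set aside with the small RNA types, although they are not small RNAs. They held 1.37% of counts and 1.37% of summed RPKM, with mt-Rnr2 at 21887 RPKM, so this ribosomal RNA was still present after depletion. By the deposited RPKM Igkc and Ighm were first and second. With GENCODE M21 lengths mt-Co1, at 26432 RPKM, stood above Igkc (25790 RPKM) and Ighm (25538 RPKM), so this order depends on the gene model. The mitochondrial respiratory chain genes mt-Co1, mt-Atp8, mt-Nd1 and mt-Co2 stood at 26432, 8123, 6639 and 6260 RPKM. B2m, the light chain of MHC class I, stood at 8989 RPKM, the translation elongation factor Eef1a1 at 8026 RPKM, the MHC class II invariant chain Cd74 at 7756 RPKM and beta-actin, Actb, at 7227 RPKM. All 13 mitochondrial protein genes were at 748 RPKM or more, and all 22 mitochondrial transfer RNA rows were counted, with mt-Ta (2873 RPKM), mt-Tc (1939 RPKM) and mt-Tn (1596 RPKM) the highest. These short transfer RNA rows held 0.0242% of counts but 0.519% of summed RPKM, so their RPKM may not compare with that of messengers.

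Small RNA rows often lay inside abundant messengers, so their values need the host beside them. Of 259 miRNA rows at 1 RPKM or more, 91 lay on the same strand in an exon of another row in GENCODE M21, and these 91 held 82.1% of the miRNA RPKM. The highest miRNA row, Gm26377 at 10618 RPKM, lay in an exon of Eef1a1, which stood at 8026 RPKM. Mir5107, at 10231 RPKM, lay in an exon of Cd74, at 7756 RPKM. Mir682, at 3066 RPKM, lay in an exon of the pseudogene Gm4149, at 2752 RPKM, and Gm22133, at 1772 RPKM, in an exon of the ferritin gene Ftl1, at 925 RPKM. Gm23935, at 5129 RPKM, lay in an intron on the other strand of Zc3h7a. For the exonic rows the hairpin and the messenger cannot be told apart by these values.

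Small nucleolar RNAs guide the chemical modification of ribosomal and spliceosomal RNA. Of 1235 snoRNA rows 363 reached 1 RPKM, of which 113 lay in an exon and 153 in an intron of a host on the same strand. Snora73a, which takes part in ribosomal RNA processing and lies in the noncoding host gene Snhg3, was the highest at 5576 RPKM, against 1216 RPKM for Snhg3. Gm22988 in Eif4a1 stood at 3844 RPKM against 261 RPKM for its host, and Gm23455 in Taf1d at 2989 RPKM against 240 RPKM. The remaining 2 of the 5 highest were Gm22009 at 2474 RPKM, in an intron of Kpna4, and the Cajal body RNA Scarna10 at 2042 RPKM, in Ncapd2. Snora73a and its neighbour Snora73b (1530 RPKM) share 198 of 205 aligned bases, and their first 60 bases are shown because reads of the pair can be told apart only at such positions (capitals, differences from Snora73a; GENCODE M21).
Snora73a: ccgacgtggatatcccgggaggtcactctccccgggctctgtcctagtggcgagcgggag
Snora73b: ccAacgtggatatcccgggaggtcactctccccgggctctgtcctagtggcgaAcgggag
The ratio of Snora73a to Snora73b was 3.64 (interval 3.48 to 3.82).

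Among spliceosomal snRNA rows, 170 of 1086 reached 1 RPKM, and 29 of these outside any other row held 85.4% of the snRNA RPKM. Rnu1b6, a U1 gene, stood at 2233 RPKM, followed by Gm23444 (1887 RPKM), Gm23849 (909 RPKM), Gm23971 (903 RPKM) and Gm24950 (886 RPKM). Of the rarer structured RNAs, the minor spliceosome RNAs Rnu11 and Rnu12 stood at 207 and 110 RPKM, the telomerase RNA Terc at 147 RPKM and the vault RNA Vaultrc5 at 121 RPKM. The Y RNAs Rny3 and Rny1 were at 9.32 and 5.94 RPKM and the histone-processing RNA Rnu7 at 1.53 RPKM. Rows of 5S ribosomal RNA were low, with 95 of 129 copies at 0 counts and n-R5s29 the highest at 19.6 RPKM.

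MicroRNA rows known from B cells were low in counts. Mature microRNAs are too short for a standard library of this kind, so these rows report fragments of the hairpin or of the primary transcript. RefSeq mature sequences matched 503 of 1160 miRNA rows by symbol. Those of Mir155, which is needed for a full antibody response, and of the cluster in the noncoding gene Mir17hg, which promotes lymphocyte growth, are given with the seed (bases 2 to 8, which pair with targets) in capitals, to show which hairpins share a seed.
miR-155-5p: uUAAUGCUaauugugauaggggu
miR-17-5p: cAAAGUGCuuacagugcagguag
miR-20a-5p: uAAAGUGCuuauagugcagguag
miR-18a-5p: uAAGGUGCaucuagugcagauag
miR-19a-3p: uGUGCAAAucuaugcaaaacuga
miR-19b-3p: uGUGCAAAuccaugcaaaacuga
miR-92a-3p: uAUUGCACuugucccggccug
The seed is shared by miR-17 and miR-20a and by miR-19a and miR-19b. The Mir155 row had 36 counts and 26.3 RPKM (interval 13.9 to 45.3). In the cluster, Mir92-1 stood at 36.8 RPKM (interval 23.0 to 55.8), Mir19a at 23.2 RPKM, Mir20a at 11.5 RPKM, Mir18 at 10.9 RPKM, Mir17 at 9.05 RPKM and Mir19b-1 at 6.55 RPKM (interval 1.87 to 16.4), while their host Mir17hg stood at 22.2 RPKM. The ratio of Mir19a to Mir19b-1 was 3.54 (interval 1.14 to 14.1), and that of Mir19a to Mir17 was 2.56 (0.908 to 8.43), which does not separate the pair. Mir150 had 4 counts, Mir181a-1 had 1, and Mir223 and Mir146 had 0. The row named Mir142, at 213 RPKM, carries the identifier that GENCODE M21 names Mir142b.

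Malat1, a long nuclear RNA, was the highest lincRNA at 1666 RPKM, followed by Gm17300 (991 RPKM), AI662270 (408 RPKM), A430104N18Rik (165 RPKM) and Xist. Neat1, the scaffold of paraspeckles, stood at 14.1 RPKM. In the processed_transcript type the snoRNA hosts Snhg3 and Gas5 stood at 1216 and 372 RPKM, and Gm15344, Gm20634, 2410006H16Rik and Gm20417 at 834, 831, 726 and 567 RPKM. Antisense rows reached 709 RPKM (Gm20632), with Gm20628, Gm20633, Gm20496 and Gm17494 next at 586, 503, 323 and 249 RPKM. Sense_intronic rows were led by Gm12238 at 35.6 RPKM, and Gm12971, Gm11932, 4930596I21Rik and Gm12737 stood between 4.78 and 5.49 RPKM. Whether counting used the strand is not given in the sources used here, so antisense values may hold sense reads. Xist, which silences one X chromosome in female cells, stood at 162 RPKM, and the 5 Y-linked genes Ddx3y, Eif2s3y, Kdm5d, Uty and Usp9y had 0 counts.

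The cell type was checked with markers, which cannot check the DMSO label. The 6 marker genes were all high: Igkc stood at 42478 RPKM (interval 42217 to 42739), Ighm at 35234 RPKM (35118 to 35350), Ighg1 at 3257 RPKM (3215 to 3299), Fcer2a, which encodes the low-affinity IgE receptor CD23, at 606 RPKM (594 to 618), Cd79a at 477 RPKM (465 to 491) and Ighe at 470.0 RPKM (457 to 484). The lowest of the 6, Ighe, lay above 98.9% of protein-coding rows. With GENCODE M21 lengths Igkc stood at 25790 RPKM and Ighm at 25538 RPKM. By counts Ighm was the first gene of the whole table, with 1013750 counts, 1.70% of the total.

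Markers of other cells were mostly near 0. T cell markers reached 1 RPKM in 7 of 18 genes, with a median of 0.429 RPKM (0.266 RPKM with GENCODE M21 lengths). Cd3g, Trbc1 and Trbc2 had 0 counts, while Cd3e had 2 counts, Cd3d 10 and Trac 15 (1.67 RPKM). The highest were Thy1 at 268 RPKM, Cd2 at 33.5 RPKM and Lck at 20.5 RPKM, and Thy1 stood at 155 RPKM with GENCODE M21 lengths. Cd247, Cd28 and Cd8b1 stood at 9.44, 2.09 and 1.22 RPKM. Whether these reads came from B cells or others was not tested. NK and cytotoxic markers reached 1 RPKM in 1 of 11 genes (Prf1, 2.80 RPKM), and Gzmb, Gzmk, Ncr1 and Klrb1c had 0 counts. Macrophage markers reached it in 2 of 17, Cd68 at 20.5 RPKM and Csf1r at 6.41 RPKM, while Lyz2 stood at 0.181 RPKM and Lyz1, Fcgr1 and Vcam1 had 0 counts. Neutrophil markers reached it in 1 of 11 (Csf3r, 1.66 RPKM), with S100a8, S100a9, Ly6g, Elane and Camp at 0 counts.

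Dendritic cell markers reached 1 RPKM in 4 of 10 genes: Bst2 at 247 RPKM, an interferon-induced gene, Batf3 at 55.9 RPKM, Flt3 at 26.6 RPKM and Zbtb46 at 6.63 RPKM. The more restricted genes Siglech and Clec9a had 0 counts and Itgax stood at 0.012 RPKM. Mast cell and basophil markers reached 1 RPKM in 0 of 8 genes, with 6 at 0 counts. Erythroid markers reached it in 1 of 8 (Alas2, 2.02 RPKM), and Hba-a1 and Hba-a2 had 0 counts. Of the platelet list 1 of 7 reached it, the integrin gene Itgb3 at 96.8 RPKM, while Pf4 and Ppbp had 0 counts. Stroma and endothelium markers reached it in 1 of 12 (Pecam1, 21.7 RPKM, which B cells also express), and Col3a1, Dcn and Cxcl13 had 0 counts. In bulk RNA, few cells of a type and little RNA per cell cannot be told apart.

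Antibody genes held 2.54% of counts (interval 2.53 to 2.54%) and 5.59% of summed RPKM, over all gene types. Among protein-coding and antibody rows alone the share was 10.7% of RPKM. Of the heavy chain constant genes Ighm was highest, followed by Ighg1, Ighe, Ighg3 (123 RPKM, interval 115 to 131), Ighg2b (42.9 RPKM, 38.3 to 47.9) and Ighg2c (6.84 RPKM, 5.23 to 8.78). No neighbours in this order had overlapping counting intervals. Ighd, Igha and Ighg2a were not matched by symbol. Ighg1 amounted to 9.24% of Ighm (interval 9.12 to 9.37%) and Ighe to 1.33% (1.30 to 1.37%). Because germline transcripts of these constant regions are also made by unswitched cells, the percentages are not shares of switched cells.

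Gene length weighed on the isotype values. The gene models behind the deposited RPKM of Ighg1, Ighg3 and Ighg2b were 0.376, 0.395 and 0.377 times the length of their exons in GENCODE M21. With GENCODE M21 lengths Ighg1 stood at 1224 RPKM, which is 4.79% of Ighm, Ighg3 at 48.5 RPKM and Ighg2b at 16.2 RPKM, and Ighe at 1.58% of Ighm. The order of the 6 isotypes was the same with either length.

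Of the light chains, the constant region gene Igkc stood 20.9 times as high as Iglc2, at 2037 RPKM (interval 20.4 to 21.3). The ratio with GENCODE M21 lengths was 12.8, and by counts 11.1. Iglc1, Iglc3 and Iglc4 were not matched by symbol, and the lambda constant genes are similar in sequence, so the ratio is not a ratio of all kappa to all lambda. The joining chain gene Igj, which links IgM into pentamers, stood at 783 RPKM, and Mzb1, a chaperone that helps to assemble IgM, at 1295 RPKM. Of the surrogate light chain of B cell precursors, Vpreb1 stood at 0.79 RPKM, Vpreb2 at 0.186 RPKM and Igll1 at 0 counts, while Vpreb3 stood at 85.1 RPKM. Rag1, Rag2 and Dntt, which assemble and trim V(D)J joints in precursors, stood at 0.029, 0.083 and 0.033 RPKM, from 4, 6 and 2 counts.

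Most variable rows of the table reached 1 RPKM. Of 29 heavy chain variable rows 20 reached 1 RPKM, with Ighv6-3 at 1514 RPKM, Ighv3-6 at 619 RPKM and Ighv6-6 at 617 RPKM, and 6 had 0 counts. Of 59 kappa variable rows 52 reached 1 RPKM, with a median of 47.2 RPKM, led by Igkv16-104 at 348 RPKM, Igkv8-24 at 326 RPKM and Igkv2-137 at 317 RPKM. The 3 lambda variable genes Iglv1, Iglv2 and Iglv3 stood at 2400, 869 and 354 RPKM, so Iglv1 exceeded every other variable row in the table. Kappa variable rows summed to 34306 counts and lambda variable rows to 26821, whereas Igkc had 288778 counts and Iglc2 25978. How many heavy and kappa variable genes have no row was not tested, so this ranking holds only for the rows present. Variable genes are close in sequence, and single rows are therefore uncertain. The table labels T cell receptor segments with the same gene types: of 34 Trav rows 28 had 0 counts and 2 reached 1 RPKM, and of 21 Trbv rows 19 had 0 counts and none reached 1 RPKM.

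The joining segments, which are under 60 bases long, gave very uneven values. They held 0.0187% of counts but 0.599% of summed RPKM. How reads that overlap so short a row were counted is not given, so their RPKM may not compare with that of messengers. The annotated transcripts are shown because those of the low row, Ighj2, are unlike each other; capitals mark TGGGG, the start of the tryptophan and glycine codons that every functional heavy chain joining segment carries, or GGTTTTTGT, the other strand of the recombination signal nonamer ACAAAAACC (both strands searched; sequences from GENCODE M21).
Ighj1: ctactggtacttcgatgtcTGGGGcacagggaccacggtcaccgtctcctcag
Ighj2-201: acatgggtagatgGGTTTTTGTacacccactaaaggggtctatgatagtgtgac
Ighj2-202: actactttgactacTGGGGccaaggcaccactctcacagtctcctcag
Ighj3: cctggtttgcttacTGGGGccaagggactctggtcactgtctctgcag
Ighj4: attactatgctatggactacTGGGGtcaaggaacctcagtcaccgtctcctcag
Ighj3 stood at 2699 RPKM (interval 2531 to 2875), Ighj4 at 1920 RPKM (1786 to 2060), Ighj1 at 1444 RPKM (1327 to 1568) and Ighj2 at 24.6 RPKM (11.7 to 45.5). Ighj2 has 2 annotated transcripts: Ighj2-202, of 48 bases, holds TGGGG like the other segments, and Ighj2-201, of 54 bases, holds the nonamer and no TGGGG. The length implied by the deposited RPKM of Ighj2 is 54.0 bases, that of Ighj2-201 and not that of Ighj2-202. Which bases the deposited row counted was not tested, so its value may not be that of the joining segment. Of the kappa joining segments, Igkj1 stood at 1879 RPKM, Igkj5 at 1643 RPKM, Igkj2 at 1216 RPKM, Igkj4 at 605 RPKM and Igkj3 at 135 RPKM.

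The B cell receptor and its signalling proteins were expressed in 26 of 27 listed genes. Cd79b, which pairs with Cd79a to carry the signal of the receptor into the cell, stood at 1545 RPKM, 3.24 times the level of Cd79a (interval 3.14 to 3.34). Of the co-receptor complex Cd81 stood at 267 RPKM, whereas Cr2, its complement receptor, stood at 3.37 RPKM (interval 2.90 to 3.89) and Ifitm1 at 0.043 RPKM. All 14 kinases and adaptors reached 1 RPKM, from 38.7 RPKM for the kinase Blk and 39.2 RPKM for Fyn to 132 RPKM for Pik3cd, 182 RPKM for the adaptor Pik3ap1 and 248 RPKM for Plcg2. Among the inhibitors Cd22, a sialic acid lectin, stood at 548 RPKM and the phosphatase Ptpn6 at 350 RPKM, with Fcgr2b, the inhibitory IgG receptor, at 53.9 RPKM and Pirb at 1.28 RPKM.

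Antigen presentation genes were among the highest lists. All 11 class II genes reached 1 RPKM, with a median of 688 RPKM that lay above 99.2% of protein-coding rows, or 328 RPKM with GENCODE M21 lengths. H2-Ab1, H2-Eb1 and H2-Aa stood at 2687, 2225 and 1762 RPKM (1720, 1361 and 922 RPKM with GENCODE M21 lengths), and the peptide exchange genes H2-DMb2, H2-DMa and H2-DMb1 at 847, 688 and 344 RPKM. The inhibitor of exchange H2-Oa was lower at 106 RPKM, the class II transactivator gene Ciita stood at 130 RPKM, and H2-Ea-ps, a broken gene in this strain, at 1.995 RPKM. All 9 matched class I genes were at 102 RPKM or more, with H2-K1 and H2-D1 at 1878 and 1443 RPKM.

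**Figure D3:**
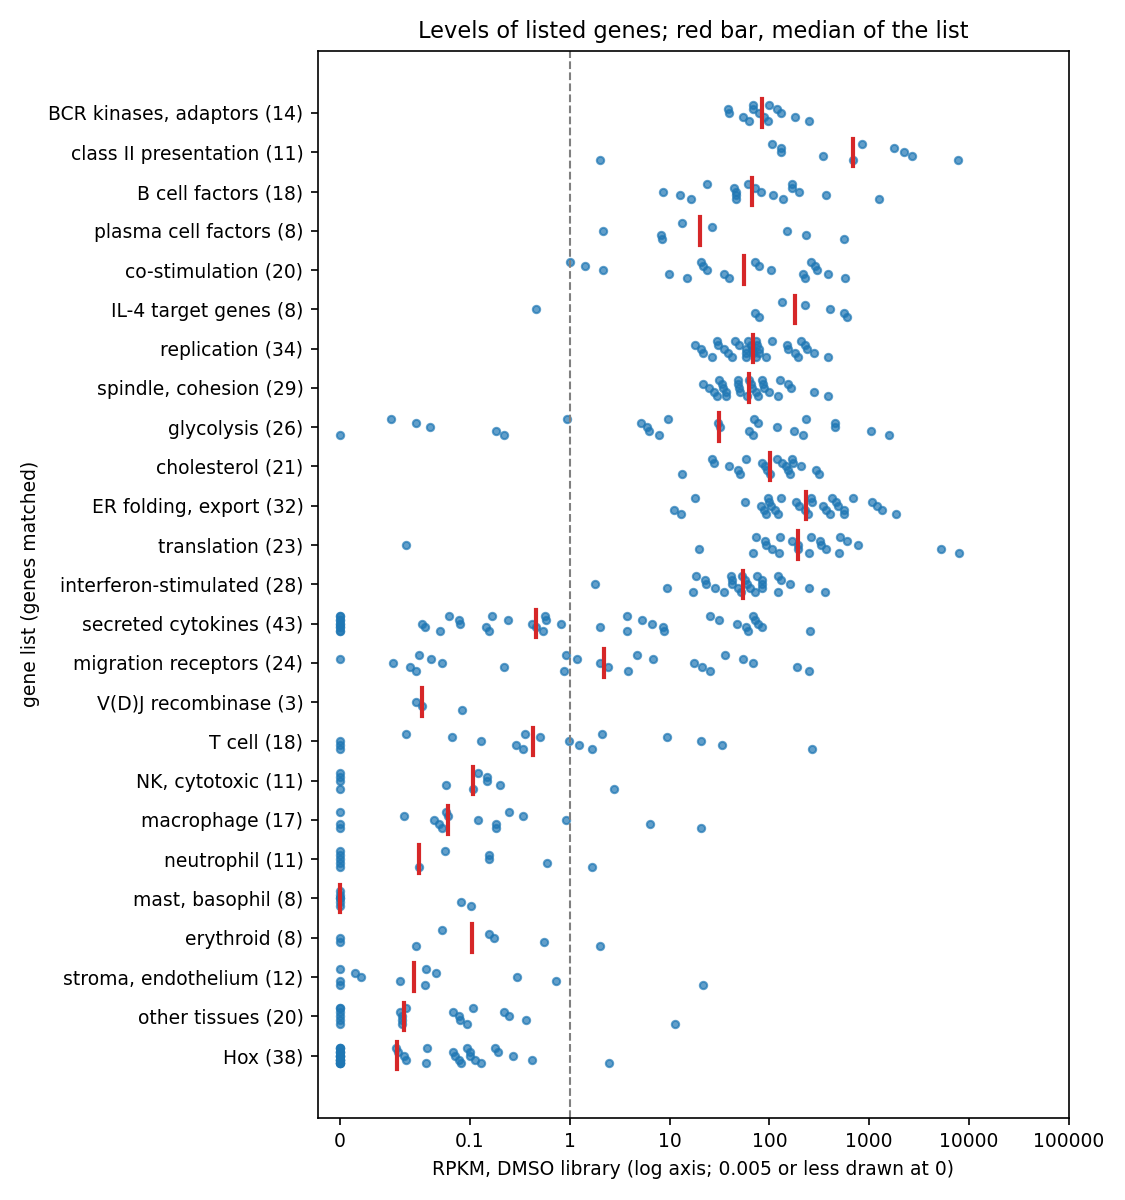
Level in RPKM on a log axis of each gene (blue points) in 25 lists, with the list's median as a red bar, the number of matched genes in brackets and a dashed line at 1 RPKM; genes at 0.005 RPKM or less are drawn at 0. Most members of the first 13 lists, from B cell receptor kinases to interferon-stimulated genes, lie above 1 RPKM, and the medians of the lists of other cells lie below it.

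B cell transcription factors were all present. Of 18 identity factors all 18 reached 1 RPKM, with a median of 66.2 RPKM, against 2.08 RPKM for all protein-coding rows. Pou2af1, the co-activator of octamer-binding factors, stood highest at 1259 RPKM, followed by Mef2c (368 RPKM, or 173 RPKM with GENCODE M21 lengths), Irf8 (198 RPKM), Spib (170 RPKM) and Tcf3 (169 RPKM). Pax5, which keeps cells in the B lineage, stood at 137 RPKM, or 53.04 RPKM with GENCODE M21 lengths. Bach2, which restrains plasma cell differentiation, stood at 12.8 RPKM and Lef1 at 8.51 RPKM, the lowest of the list.

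Plasma cell factors stood at very different levels. Xbp1, which expands the secretory apparatus, stood at 556 RPKM, Irf4 at 235 RPKM and Ell2, which favours the secreted form of the heavy chain messenger, at 150 RPKM (55.8 RPKM with GENCODE M21 lengths). Prdm1, which shuts down the B cell programme, stood at 26.9 RPKM (interval 25.3 to 28.6), 19.6% of the level of Pax5, or 49.9% with GENCODE M21 lengths. The surface protein gene Sdc1 stood at 13.4 RPKM, and Creb3l2 and Tnfrsf17 at 8.18 and 2.16 RPKM. Of the germinal centre list, Neil1 stood at 93.3 RPKM, Mef2b at 68.2 RPKM and Bcl6, the defining repressor, at 10.3 RPKM (interval 9.40 to 11.2), whereas Gcsam and Rgs13 stood at 1.46 and 0.116 RPKM.

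DNA repair genes that act in class switching were present. All 19 genes of break response and joining reached 1 RPKM. Apex1, an endonuclease at abasic sites, stood at 224 RPKM, the mismatch repair gene Msh6 at 152 RPKM, and the uracil glycosylase gene Ung at 42.95 RPKM (20.16 RPKM with GENCODE M21 lengths), with Pms2 and Apex2 lowest at 16.2 and 5.26 RPKM. In the break response H2afx and Parp1 stood at 490 and 328 RPKM, followed by Rad50, Rnf8 and Atm between 71.8 and 73.1 RPKM. The end-joining genes Nhej1 and Lig4 were lowest at 6.61 and 4.31 RPKM.

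Families of related transcription factors were expressed at several levels. The IRF genes at 1 RPKM or more included Irf4 (235 RPKM), Irf8 (198 RPKM), Irf5 (148 RPKM), Irf7 (120 RPKM), Irf9 (59.5 RPKM), Irf1 (56.2 RPKM), Irf3 (55.2 RPKM) and Irf2 (19.99 RPKM, or 6.71 RPKM with GENCODE M21 lengths). Of the STAT genes Stat5a stood at 59.0 RPKM, Stat5b at 60.6 RPKM and Stat4 at 130 RPKM, with Stat3, Stat2 and Stat6 between 79.0 and 96.8 RPKM. Of the NF-kB subunits Nfkb1 was highest at 696 RPKM, 9.55 times Rela (interval 9.06 to 10.1), with Nfkb2 at 211 RPKM, Rel at 90.02 RPKM, Rela at 72.9 RPKM and Relb at 35.3 RPKM. With GENCODE M21 lengths Nfkb1 stood at 277 RPKM, 4.29 times Rela, and Rel at 33.8 RPKM, so the order of Rel and Rela depends on the gene model. All 7 genes that restrain or modify NF-kB reached 1 RPKM, from Nfkbid at 21.1 RPKM to Nfkbia, the main inhibitor, at 246 RPKM.

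Among AP-1 genes Jund (412 RPKM, or 712 RPKM with GENCODE M21 lengths), Batf (405 RPKM), which is needed for class switching, and Junb (397 RPKM) were high, Jun stood at 61.2 RPKM and Fos at 32.5 RPKM, and Maf at 0.092 RPKM. Of the early response genes Egr2 stood at 109 RPKM, Ier5 at 107 RPKM, Ier2 at 67.0 RPKM, Egr1 at 23.9 RPKM and Nr4a1, a marker of recent receptor signalling, at 3.44 RPKM, while Nr4a2 and Egr4 stood at 0.375 and 0.022 RPKM. Myc stood at 194 RPKM (interval 188 to 200.4) and its partner Max at 148 RPKM. Its paralogues Mycl and Mycn stood at 0.282 and 0.144 RPKM.

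**Figure D4:**
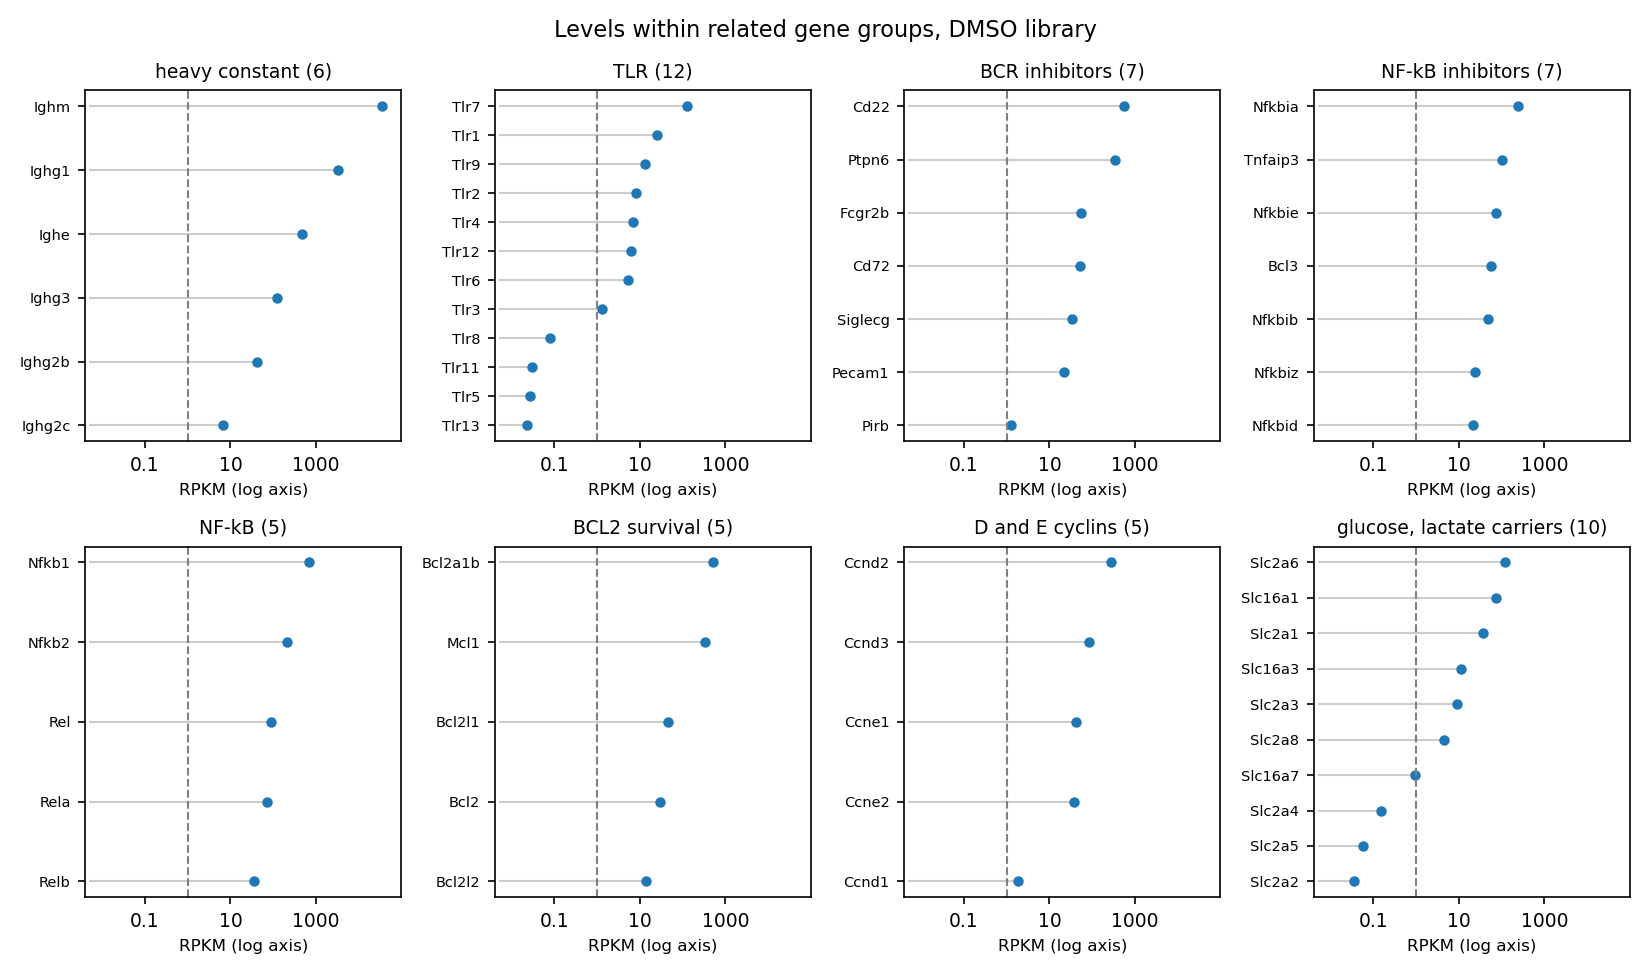
Level in RPKM, on log axes, of every matched member in 8 groups of genes of the DMSO library, with a dashed line at 1 RPKM; grey lines lead from the axis to each point. The heavy chain constant genes span 6.84 to 35234 RPKM, whereas the 7 NF-kB inhibitor genes lie between 21.1 and 246 RPKM.

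The IL-4 pathway was expressed at every listed level, from receptor to target. Il4ra stood at 646 RPKM (interval 638 to 654) and the shared chain Il2rg at 183 RPKM, whereas Il13ra1, the partner in the other form of the receptor, stood at 1.24 RPKM. The kinase Jak1 stood at 109 RPKM, Stat6 at 96.8 RPKM, Jak2 at 45.8 RPKM, Jak3 at 38.2 RPKM and Tyk2 at 31.4 RPKM. The inhibitors Socs1, Socs2, Ptpn1, Socs3 and Cish stood at 109, 88.1, 79.6, 47.7 and 37.4 RPKM, and Socs1 at 45.9 RPKM with GENCODE M21 lengths. Of 8 genes listed as IL-4 targets 7 reached 1 RPKM: Fcer2a (606 RPKM), Xbp1 (556 RPKM), Batf (405 RPKM), Il4i1, an amino acid oxidase (229 RPKM), Tnfrsf8 (133 RPKM), Cd86 (77.9 RPKM) and Ccl22 (72.1 RPKM). Ccl17, a chemokine gene beside Ccl22 in the list, stood at 0.463 RPKM.

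The promoter windows of Il4ra and Fcer2a, from 250 bases before to 50 bases after the start (RefSeq, GRCm38.p6), are shown because genes of nearly equal level in the same pathway have unlike promoters; capitals mark CG pairs, the sites of DNA methylation.
Il4ra, chr7:125552021-125552320, plus strand: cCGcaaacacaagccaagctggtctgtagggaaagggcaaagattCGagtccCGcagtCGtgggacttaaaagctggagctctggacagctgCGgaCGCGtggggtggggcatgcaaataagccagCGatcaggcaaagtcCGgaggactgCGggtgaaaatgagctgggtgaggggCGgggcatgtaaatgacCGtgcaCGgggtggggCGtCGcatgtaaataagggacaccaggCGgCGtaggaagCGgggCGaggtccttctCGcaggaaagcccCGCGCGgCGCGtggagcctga
Fcer2a, chr8:3694125-3694424, minus strand: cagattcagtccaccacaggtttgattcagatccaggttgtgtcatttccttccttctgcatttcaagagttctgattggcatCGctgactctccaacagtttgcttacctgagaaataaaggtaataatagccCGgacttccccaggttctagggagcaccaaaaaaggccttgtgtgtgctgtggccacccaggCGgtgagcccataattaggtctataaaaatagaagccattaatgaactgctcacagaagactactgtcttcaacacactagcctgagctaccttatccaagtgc
The Il4ra window holds 25 CG pairs and the Fcer2a window 3, where the median of 15100 protein-coding genes was 16. Fcer2a has 3 start sites in the table, with 3, 3 and 4 CG pairs. The Fcer2a window shown holds TATAAA, found in 13.8% of genes on either strand. The Il4ra window holds the octamer ATGCAAAT, found in 1.87% of genes. A match of letters does not show binding.

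The Toll-like receptors were uneven. Tlr7, a sensor of single-stranded RNA, stood at 127 RPKM, followed by Tlr1 (25.6 RPKM), Tlr9 (13.5 RPKM), Tlr2 (8.01 RPKM), Tlr4 (6.71 RPKM, interval 5.94 to 7.55), Tlr12 (6.33 RPKM), Tlr6 (5.35 RPKM) and Tlr3 (1.30 RPKM). Tlr8, Tlr11, Tlr5 and Tlr13 stood at 0.079 RPKM or below. The LPS receptor Tlr4 lay below Tlr7, Tlr1, Tlr9 and Tlr2 at the end of the culture, and its ratio to Tlr2 was 0.838 (interval 0.692 to 1.02), which does not separate the pair. Of the partners of LPS sensing Ly96, the lipid-binding subunit of the Tlr4 complex, stood at 50.3 RPKM, Ly86 at 440 RPKM (121 RPKM with GENCODE M21 lengths) and Cd180, the receptor that Ly86 binds, at 27.4 RPKM. Cd14, which delivers LPS to Tlr4 in macrophages, had 4 counts (0.121 RPKM, interval 0.0076 to 0.538) and Lbp had 0. All 10 adaptors and kinases reached 1 RPKM, with Irak1, Myd88, Ticam1, Ticam2 and Traf6 between 26.0 and 64.5 RPKM, and Irak2 and Tirap lowest at 13.7 and 9.99 RPKM.

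Surface genes of activated B cells were expressed. Of 20 activation and co-stimulation genes 19 reached 1 RPKM, with a median of 55.7 RPKM, led by Cd83 (577 RPKM), the BAFF receptor gene Tnfrsf13c (388 RPKM), Cd44 (299 RPKM), Cd69 (286 RPKM, 71.3 RPKM with GENCODE M21 lengths) and Tnfrsf13b (259 RPKM). Cd70 and Icosl were lowest at 1.41 and 0.995 RPKM. Of interleukin receptors 22 of 27 reached 1 RPKM: below Il4ra came Il21r, whose ligand is made by follicular helper T cells, at 433 RPKM, the shared chain Il2rg at 183 RPKM, Il1r2, a decoy receptor, at 84.1 RPKM, and Il5ra at 73.0 RPKM. Il7r, the receptor of B cell precursors and T cells, stood at 0.185 RPKM and Il13ra2 had 0 counts. Interferon and growth factor receptors reached it in 9 of 11 genes, led by Ifngr2 at 99.9 RPKM, with Kit lowest at 0.081 RPKM.

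Migration receptors were a mixed list, with 14 of 24 at 1 RPKM or more. Cxcr5, which guides B cells into follicles, stood at 247 RPKM and Gpr183, which guides them to the follicle edge, at 189 RPKM. Ccr7 and Cxcr4 stood at 68.6 and 54.7 RPKM, S1pr4, S1pr3 and S1pr1 at 36.0, 25.5 and 20.9 RPKM, and Cxcr3, Ccr2, Ccr1 and Cxcr1 at 0.22 RPKM or below. Of 24 integrin chains only 9 reached 1 RPKM: Itgb2 (120 RPKM) with its partner Itgal (52.4 RPKM), Itgb1 (102 RPKM) with Itga4 (21.9 RPKM), and Itgb3 (96.8 RPKM) with Itgav (15.9 RPKM), then Itgb5, Itgb7 and Itga6 between 4.11 and 6.37 RPKM. Itgb3 stood at 6.10 times Itgav, its only listed partner at 1 RPKM or more (interval 5.73 to 6.51), while Itga2b stood at 0.767 RPKM. Of 14 Fc receptor genes 11 reached 1 RPKM, with Fcer2a, Faim3 (84.3 RPKM), Fcgr2b (53.9 RPKM), Fcrl1 (43.6 RPKM) and Fcrl5 (25.7 RPKM) highest and Fcgr1 and Fcer1a at 0 counts.

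Secreted mediators were a mixed list. Of 43 cytokine and chemokine genes 17, which is 39.5%, reached 1 RPKM, beside 53.7% of all protein-coding rows, 21 had 10 or more counts and 10 had 0 counts. Ebi3, a subunit of interleukin-27 and interleukin-35, was highest at 256 RPKM, while Il27 and Il12a, which encode its partners, stood at 0.419 and 6.71 RPKM. Vegfa, Tnf, Ccl22 and Ltb stood between 68.0 and 84.8 RPKM. Il6 stood at 47.8 RPKM (21.4 RPKM with GENCODE M21 lengths) and Il10 at 5.26 RPKM. Ifng, Il17a, Il13, Il21, Il3, Il9, Il7, Il12b, Ccl2 and Cxcl13 had 0 counts, and Il4 itself stood at 0.077 RPKM.

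Genes known from resting B cells were present. Of 19 matched genes of the naive and quiescence list 18 reached 1 RPKM, with a median of 33.0 RPKM. Besides Fcer2a, the redox regulator Txnip stood at 204 RPKM, the chromatin organiser Satb1 at 108 RPKM and Btg2 at 103 RPKM. Klf2, which maintains quiescence, stood at 62.9 RPKM, and Klf4 and Il7r were lowest at 2.59 and 0.185 RPKM.

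The cell cycle machinery was expressed. Ccnd2, the D-type cyclin of B cells, stood at 273 RPKM, 3.20 times Ccnd3 (85.3 RPKM; interval of the ratio 3.03 to 3.39), or 7.55 times with GENCODE M21 lengths, whereas Ccnd1 stood at 1.88 RPKM (interval 1.41 to 2.46). Ccne1 and Ccne2 stood at 41.4 and 37.3 RPKM. Of the kinases Cdk4 was highest at 212 RPKM, with Cdk2 at 87.8 RPKM, Cdk1 at 73.4 RPKM, Cdk6 at 14.9 RPKM and Cdk7 at 12.8 RPKM. With GENCODE M21 lengths Cdk2 stood at 34.3 RPKM, Cdk7 at 28.9 RPKM and Cdk6 at 3.97 RPKM, so the order below Cdk4 depends on the gene model. Of the inhibitors Cdkn1b stood at 43.2 RPKM, Cdkn2c at 19.6 RPKM, Cdkn1a at 14.7 RPKM, Cdkn2a at 9.28 RPKM, Cdkn2b at 7.47 RPKM and Cdkn1c at 0.64 RPKM. All 11 RB and E2F genes reached 1 RPKM, from E2f7 at 4.49 RPKM to E2f4 at 94.5 RPKM.

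All 34 replication genes were at 17.9 RPKM or more, with a median of 68.4 RPKM. The helicase genes Mcm3, Mcm6, Mcm5 and Mcm4 led at 385, 283, 236 and 226 RPKM, with the clamp gene Pcna at 206 RPKM, and Orc1 and Gins3 were lowest at 20.8 and 17.9 RPKM. The ribonucleotide reductase genes Rrm1 and Rrm2 stood at 233 RPKM (84.4 RPKM with GENCODE M21 lengths) and 181 RPKM, and Rrm2b, the form used by resting cells, at 6.60 RPKM. Clustered histone genes, whose messengers carry no poly(A) tail and are kept by ribosomal RNA depletion, were counted in all 64 rows. They held 1.55% of counts, their median was 932 RPKM, and Hist1h4d (5426 RPKM), Hist1h1e (3203 RPKM) and Hist1h4k (3095 RPKM) led. Lengths from GENCODE M21 put Hist1h4d at 1874 RPKM and Hist1h1e at 1241 RPKM, below Hist1h4k at 3095 RPKM and Hist2h2aa2 at 2913 RPKM, so the order depends on the gene model. Histone copies are near-identical in sequence, so single rows are uncertain.

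Mitotic genes were expressed throughout. All 29 spindle and cohesion genes were at 21.6 RPKM or more, led by Mki67 (386 RPKM, interval 381 to 390.4), the proliferation marker, Top2a (281 RPKM), Incenp (163 RPKM), Kif11 (154 RPKM) and Cdc20 (127 RPKM). Of the mitotic cyclins and kinases 15 of 17 reached 1 RPKM, with Ccna2 and Ccnb2 at 197 and 130 RPKM; the germ cell cyclins Ccnb3 and Ccna1 stood at 0.031 RPKM and 0 counts. All 13 listed p53 targets reached 1 RPKM, with Ccng1 and Gadd45g at 280 and 272 RPKM and Zmat3 lowest at 7.74 RPKM. Among survival genes Bcl2a1b (510 RPKM) and Mcl1 (339 RPKM) were far above Bcl2l1 (44.8 RPKM), Bcl2 (29.4 RPKM) and Bcl2l2 (13.7 RPKM); the Bcl2a1 copies are near-identical, so the first value is uncertain. Of the death genes Bax and Bak1 stood at 140 and 128 RPKM, Bcl2l11 at 81.8 RPKM, and Bok and Hrk at 0.199 and 0.018 RPKM.

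Glycolysis genes differed sharply between forms of one enzyme. Of 26 genes 19 reached 1 RPKM, and those below it included Gapdhs, Hk3, Ldhb, Pklr and Pgk2, each of which has a paralogue above it. Pkm stood at 1594 RPKM (762 RPKM with GENCODE M21 lengths) against 0.029 RPKM for the liver form Pklr, Aldoa at 1035 RPKM against 31.7 RPKM for Aldoc, and Ldha at 452 RPKM against 0.182 RPKM for Ldhb. Tpi1 stood at 455 RPKM and Gpi1 at 234 RPKM, Hk2 at 69.0 RPKM and Hk1 at 30.4 RPKM, while the testis form Pgk2 had 0 counts. Gapdh, at 217 RPKM (118 RPKM with GENCODE M21 lengths), has many pseudogenes, and its value is uncertain. Of the sugar and lactate carriers Slc2a6 was highest at 123 RPKM, above the main glucose carrier Slc2a1 (37.1 RPKM), Slc2a3 (8.83 RPKM) and Slc2a8 (4.43 RPKM), with Slc2a4, Slc2a5 and Slc2a2 at 0.151 RPKM or below. The lactate carriers Slc16a1 and Slc16a3 stood at 73.1 and 11.03 RPKM and Slc16a7 at 0.928 RPKM.

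Other metabolic lists were high almost throughout. Of 26 tricarboxylic acid cycle genes 25 reached 1 RPKM, led by Cs (272 RPKM), Acly (266 RPKM), Dlst (249 RPKM) and Mdh2 (150 RPKM), with the testis form Pdha2 at 0.040 RPKM. Using GENCODE M21 lengths, Cs stood at 133 RPKM, Dlst at 72.4 RPKM and Mdh2 at 88.0 RPKM. Of 62 nuclear respiratory chain genes 59 reached 1 RPKM, with a median of 121 RPKM, and Cox8b and Cox8c had 0 counts. Atp5a1 (833 RPKM) and Cox4i1 (729 RPKM) led. With GENCODE M21 lengths Cox4i1 stood at 320 RPKM, below Atp5b at 691 RPKM, so the order below Atp5a1 depends on the gene model. Cox6a2, a form of heart and muscle, stood at 58.3 RPKM beside 467 RPKM for Cox6a1. All 27 amino acid genes reached 1 RPKM: mitochondrial Shmt2, which feeds serine into one-carbon metabolism, stood at 477 RPKM, 7.44 times its cytosolic paralogue Shmt1 (interval 7.07 to 7.83), the carrier chains Slc3a2 and Slc7a5 at 226 and 216 RPKM, Odc1 at 213 RPKM and Psat1 at 192 RPKM. Gls2 and Arg1 were lowest at 1.09 and 1.03 RPKM.

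Lipid synthesis genes were expressed in 31 of 32 listed genes. All 21 matched cholesterol genes were at 13.2 RPKM or more, with a median of 103 RPKM, led by Insig1 (313 RPKM), Cyp51 (290.0 RPKM), Fdps (207 RPKM, or 60.6 RPKM with GENCODE M21 lengths), and Srebf2 (171 RPKM). Of 11 fatty acid genes 10 reached 1 RPKM, with the desaturases Scd1 and Scd2 at 604 and 571 RPKM, Fads2 at 243 RPKM (111 RPKM with GENCODE M21 lengths) and Fasn at 209 RPKM. Acaca, which makes malonyl-CoA for synthesis, stood at 21.8 RPKM and its mitochondrial paralogue Acacb at 0.202 RPKM.

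Genes of secretion and protein folding stood near the top of the table. All 32 endoplasmic reticulum genes were at 11.1 RPKM or more, and their median of 235 RPKM lay above 97.3% of protein-coding rows. The chaperones Calr (1856 RPKM), Hsp90b1 (1344 RPKM), Hspa5 (1206 RPKM), Pdia4 (1072 RPKM) and Canx (681 RPKM) led. Ern1, the kinase and nuclease that splices the Xbp1 messenger, was lowest at 11.1 RPKM, after Sec61g at 12.9 RPKM. In the cytosol Hsp90ab1 stood at 2579 RPKM, 8.04 times Hsp90aa1, and Hspa8 at 984 RPKM, while the heat-inducible Hspa1a and Hspa1b stood at 4.02 and 4.45 RPKM. Of translation genes 22 of 23 reached 1 RPKM, Eef1a1 and Eef2 at 8026 and 5187 RPKM, and the neuronal and muscle form Eef1a2 at 0.023 RPKM. All 19 nucleolar genes reached it, with Ncl at 512 RPKM and Npm1 at 329 RPKM.

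Interferon-stimulated genes were expressed, and the labels name no interferon treatment. All 28 reached 1 RPKM, with a median of 54.7 RPKM that lay above 86.2% of protein-coding rows. Gbp2 (360 RPKM), Bst2 (247 RPKM), Oasl1 (162 RPKM), Eif2ak2 (130 RPKM) and Gbp3 (122 RPKM) led, and Ifit3 and Ifi44 were lowest at 9.43 and 1.80 RPKM. The interferon genes Ifnb1 and Ifng stood at 0.062 RPKM and 0 counts.

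Several families of receptors and developmental factors had most rows at 0 counts or below 1 RPKM. Of 1074 olfactory receptor rows 914 had 0 counts and 7 reached 1 RPKM. Of 405 vomeronasal receptor rows 344 had 0 counts and 1 reached 1 RPKM. Beta-defensins had 41 of 42 rows at 0 counts, all 10 trace amine receptors had 0 counts, and taste receptors had 33 of 38 rows at 0. Of 38 matched Hox genes 18 had 0 counts and only Hoxb4 passed 1 RPKM, at 2.47 RPKM. None of 19 GABA receptor rows and none of 15 rows named Nkx reached 1 RPKM, and of 94 potassium channel rows 17 did, led by Kcnn4, the calcium-activated channel of lymphocytes, at 51.6 RPKM. Of 20 genes that define other tissues 1 reached 1 RPKM, the myelin gene Mbp at 11.4 RPKM, whose locus also encodes the Golli proteins of lymphocytes, and Ins2, Myh6, Myh7, Krt5, Sftpc and Umod had 0 counts.

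Promoter sequence differed with level across the library. RefSeq windows of 300 bases were matched to 15100 protein-coding genes. For CG pairs the window with the most was used for each gene, and for words a match in any window counted. The median was 3 CG pairs for 3107 genes at 0 RPKM, 8 for genes above 0 up to 0.1 RPKM, 10 for genes from 0.1 to 1 RPKM, 19 for genes from 1 to 10 RPKM, and 23 for genes from 10 to 100 RPKM as for those at 100 RPKM or more. Gene families within these groups were not separated, and 914 olfactory and 344 vomeronasal receptor rows of the table had 0 counts. How far such families set the values at 0 RPKM was not tested. TATAAA, on either strand, occurred in 26.4% of genes at 0 RPKM, in 7.07% of genes from 10 to 100 RPKM and in 10.3% of genes at 100 RPKM or more. CCGGAAGT, a word bound by ETS factors, went the other way, from 0.676% of genes at 0 RPKM to 11.7% of genes from 10 to 100 RPKM and 9.78% at 100 RPKM or more. This word itself holds a CG pair, and the mean number of windows per gene was 1.10 at 0 RPKM and 1.27 from 10 to 100 RPKM. Whether the words differ beyond base composition and window number was not tested. The octamer ATGCAAAT showed no such course, at 2.74% and 1.80% of genes at the lowest and the highest level.

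Lists differed from one another. Cell cycle and secretion genes had CG-rich windows, with medians of 24 CG pairs over 26 replication genes, 24 over 25 spindle genes and 27 over 27 endoplasmic reticulum genes. Some lymphocyte lists had few: 3 over 7 class II genes, 5 over 6 inhibitors of the B cell receptor and 8 over 7 IL-4 target genes. The median level was 50.9 RPKM for these inhibitors beside 68.4 RPKM for replication genes, so the contrast does not follow level alone. The lists named here were picked from 77, and other lymphocyte lists are not given. Hox genes, of which 1 of 38 reached 1 RPKM, had a median of 20 over 21 genes. Gene families share base composition, and these medians are descriptions.

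**Figure D5:**
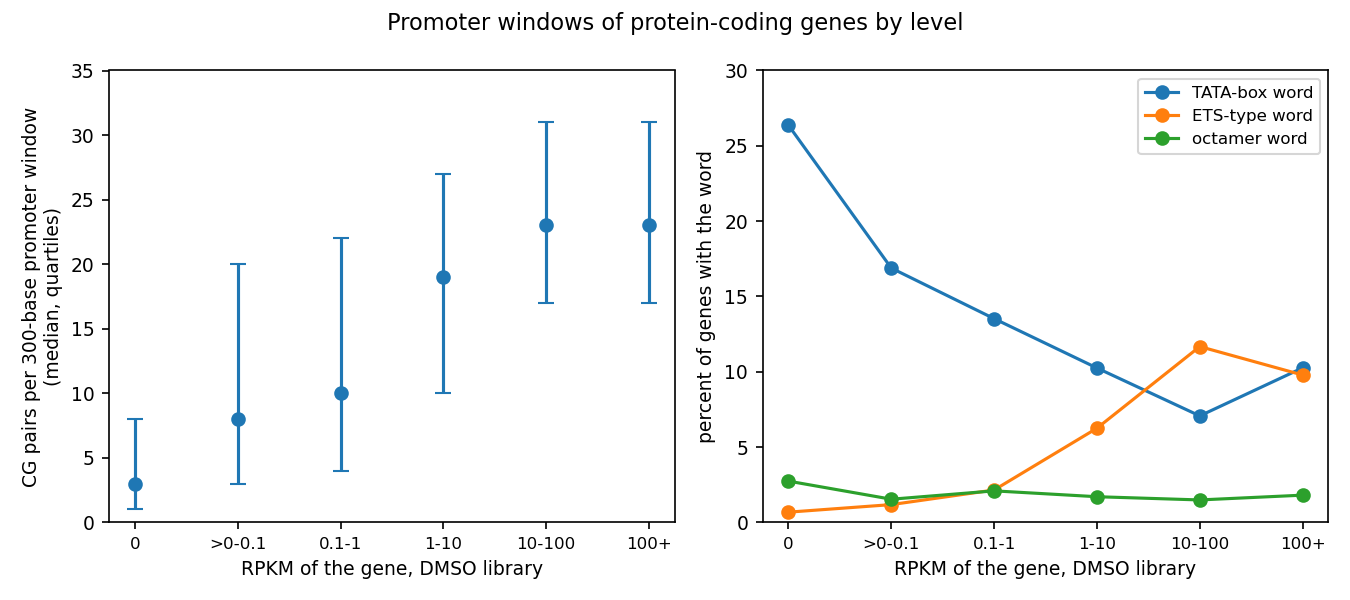
Promoter windows of protein-coding genes grouped by level in the DMSO library. Left, CG pairs per 300-base window as the median (points) with quartiles (bars). Right, the percent of genes with any window that holds a TATA-box, ETS-type or octamer word on either strand. The median rises from 3 to 23 CG pairs, and the TATA-box word falls from 26.4% to 10.3% at the highest level.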

How the data were processed

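Per the labels, Trizol was used to extract RNA, Ribo-Zero to remove ribosomal RNA, and an Illumina protocol to make the library. The deposited table gives each gene a count, in whole numbers without normalisation, and an RPKM, which the authors scaled to length and depth. Build mm9 is named by the submitters' processing notes. Aligner, counter, annotation and strandedness: not given in the sources used here.

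From counts, RPKM and GENCODE M21 exon lengths, the total behind the RPKM was computed as 21047905, so the counts summed to 2.84 times it. Of 11170 rows with at least 200 counts, 44.8% had a length within 0.1% of GENCODE M21. Counts of 2 were more frequent (1716 rows) than of 1 (1267), and 160 rows with 0 counts had an RPKM above 0, at most 0.147. The counts were therefore not treated as independent fragments but divided by 2.84 for exact Poisson, Clopper-Pearson and conditional binomial 95% intervals. The Poisson and conditional binomial intervals were checked on simulated independent counts only. Whether division by 2.84 gives the right width for these counts was not tested, and the Clopper-Pearson intervals were not simulated. Other lengths were used as an alternative because the models differ: of 968 listed genes with both, 813 were within 1.5 times.

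Where a symbol had several rows (94 symbols), the most counted one was taken. GENCODE M21 is of a later build than the files, so it gave names, lengths, overlaps and transcript sequences but no coordinates. Genes were named by rule: the 20 highest outside small RNA types, the 5 highest of each larger type, and per list up to the 5 highest and 2 lowest. Symbol families, joining segments, and further genes were chosen after their values were seen. Some members of the lists are not reported here. Members and lists were chosen with earlier results of these data known. Python 3.11.15, scipy 1.17.1 and biopython 1.88 were used.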

Additional observations from a re-analysis of the deposited data

How the results depend on the processing

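With 1 library no replicate could be left out. No paired analysis was possible because each treatment has 1 library. The number of genes at 1 RPKM or more stayed within 1.5 times under 0.5 RPKM, 2 RPKM, 10 counts and GENCODE M21 lengths. Shares depended on the scale. The protein-coding share of summed RPKM was 82.0% by counts and 48.7% without mitochondrial and antibody genes. The antibody share was 2.54% by counts and 10.7% among protein-coding and antibody types. The share of the 10 highest genes, 31.3% of RPKM, was 11.3% by counts and 15.7% among those types. The ratio of Igkc to Iglc2 was 11.1 by counts, and Ighg1 was 6.59% of Ighm. With GENCODE M21 lengths, an alternative added after seeing the data, the ratio was 12.8, Ighg1 was 4.79% and Ighe 1.58% of Ighm. Members at 1 RPKM per list were within 1.5 times in all 77 lists with GENCODE M21 lengths or summed rows, in 66 with 10 counts and in 70 with 5 RPKM. Depth limits the low end: many marker genes of other cells rest on fewer than 10 counts.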
